A study of Mus musculus with 9 samples.

Results

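The zinc finger protein genes of the 6DT1 RNA-seq table were examined as a family. Members were taken by name alone: protein-coding genes of GENCODE M21 whose symbol begins with Zfp and a digit, Zscan, Zkscan, Zbtb, Znf, Zhx, Zik1 or Rex2. Of 471 such genes in the annotation, 97 were among the 5301 genes of the table, and the remaining annotated genes were not analysed here. Names alone set the family, but every gene of the table differed from shControl in these libraries, as described below, so the 97 are not a sample of the family at large.

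The 6DT1 line is a mouse mammary tumor line from an MMTV-Myc tumor, syngeneic with FVB/NJ mice, and all groups share that origin. Cells were transduced with a lentivirus carrying a scramble hairpin (shControl) or one of the Resf1 shRNAs, shH4 or shH6, and all were kept under puromycin. Each hairpin was represented by 1 transduced line, from which dishes were seeded in triplicate, giving 3 libraries in each of 3 groups. The SD given below is therefore the spread between dishes of a line, and a property of a transduced line cannot be told apart from an effect of its hairpin. The values are normalized counts, that is, reads per gene divided by a size factor per library. Fold changes are differences of log2(value + 1), which understate the change of low genes. A gene was called when limma's Benjamini-Hochberg adjusted p, taken over all 5301 genes, was under 0.05.

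The table was a selection of genes. All 5301 genes had fold changes of one sign in shH4 and shH6, and the average of the hairpins differed from shControl for all 5301 (highest limma adjusted p = 0.0223), so any count against shControl has to be read beside the share called over the whole table. The reads in the listed genes were estimated at 10.5 to 19.9 M per library, from size factors read off the spacing of low values, on which only part of the values lay. Resf1 was lower in all 6 knockdown (KD) libraries, by 0.69 under shH4 and 0.50 under shH6 on the log2 scale (limma adjusted p = 2.34e-09 and 8.72e-08). Of 11 epithelial markers looked for, 2 were listed, Krt8 and Krt18, and Krt8 was at 12653 to 16015 normalized counts. In bulk RNA, fewer cells of a kind and less RNA per cell cannot be told apart.

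Zinc finger proteins of the C2H2 kind bind DNA through arrays of small zinc-holding fingers, and other domains of the protein decide what is recruited there. The KRAB domain binds TRIM28, which brings the SETDB1 methyltransferase and trimethylation of lysine 9 on histone H3 to the bound site, often a transposable element. The BTB domain binds corepressors, the SCAN domain pairs proteins with one another, and the genes themselves lie largely in tandem clusters that differ between mammals. RESF1 is known as a SETDB1-associated protein. This places the zinc finger genes with a KRAB domain on both sides of the pathway, as its DNA-binding partners and as frequent carriers of its mark.

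The first question was how the family as a whole moved. In shH4, 59 of the 97 members were higher and 33 were lower, where 49.2% of all listed genes were called higher and 46.5% lower. In shH6, 60 were higher and 34 lower, where 49.1% and 46.9% of all listed genes were called. Both hairpins together called 56 members higher and 33 lower, against 47.2% and 44.6% of the table. The median log2 fold change of the members was 0.17 in each hairpin, and over the table it was 0.096 in shH4 and 0.088 in shH6. With libraries scaled to a common upper quartile, the medians were 0.11 and 0.12 for the members and 0.034 and 0.036 for the table, and 43 members were higher and 34 lower in shH4, where 38.5% and 48.6% of all listed genes were called. By library, the median of the members against the shControl mean was 0.14, 0.16 and 0.15 in shH4 and 0.17, 0.17 and 0.16 in shH6, so no single dish set the family's level. Most changes were small, as in the table. The median size was 1.206-fold under shH4 and 1.215-fold under shH6, where the table had 1.203-fold and 1.206-fold. Changes over 2-fold were seen in 4 members (4.12%) and 2 members (2.06%), and in 206 (3.89%) and 212 (3.999%) of all listed genes.

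The members were then described by domain. The BTB, SCAN and homeobox classes were set by symbol alone, as Zbtb, as Zscan or Zkscan, and as Zhx. The others were sorted by patterns in the protein translated from the annotated coding sequence. SCAN or BTB domains under other symbols were not looked for, and the classes set by symbol were not split by KRAB box. A KRAB A box was matched in 27 listed members of 199 annotated. The class median, on the log2 scale, was -0.17 under shH4 and -0.20 under shH6, with 12 members up and 15 down in the first and 11 up and 15 down in the second. These were 44.4% up and 55.6% down in shH4, not far from the 49.2% and 46.5% of the table. In shH6 they were 40.7% up and 55.6% down, where the table had 49.1% and 46.9%. The 44 members with 3 or more fingers and no match to the KRAB pattern had medians of 0.19 and 0.22, with 34 up and 7 down, and 34 up and 8 down. The pattern misses some KRAB boxes. When either end of the box was accepted, a choice made after the values were seen, 32 members matched, with medians of -0.17 and -0.19. With a stricter pattern 13 matched, and the medians were -0.17 and -0.19, with 6 up and 7 down in shH4 and 5 and 7 in shH6. In shH4 no KRAB member lay between -0.17 (Zfp369) and 0.099 (Zfp334). The sign of these medians therefore follows a small excess of lower members. All of these are counts and medians with no test of the difference between classes.

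**Figure D1:**
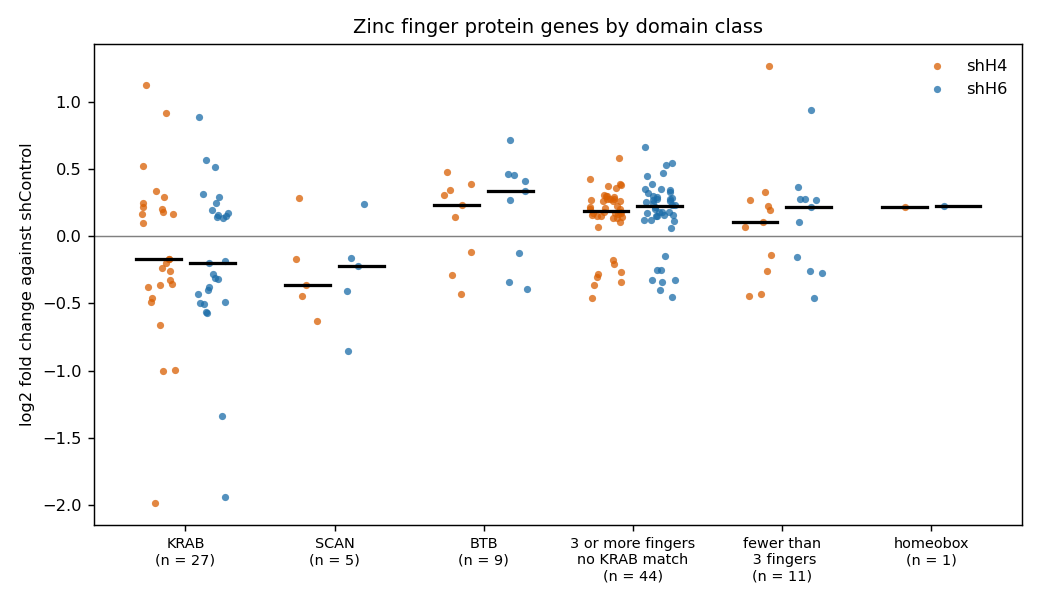
Each point is a member gene, placed by its domain class on the x axis and by its log2 fold change against shControl on the y axis, with shH4 in orange and shH6 in blue, and the black bar is the class median. The KRAB class spans the widest range, from -1.98 to 1.12 in shH4, while the medians of the BTB class and of the class with 3 or more fingers lie above 0.

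Zfp985 and Zfp979, the members with the lowest log2 fold change averaged over the hairpins, were KRAB genes of a tandem cluster on chromosome 4. This cluster holds 19 zinc finger genes in GENCODE M21. Of this cluster, Zfp993, Zfp985, Zfp979 and Zfp984 were listed, and all 4 were called lower in both hairpins, with Zfp993 in shH6 close to the threshold. Zfp985 (ENSMUSG00000065999), with 10 fingers, was at 38.9, 35.6 and 38.8 normalized counts in the shControl libraries, 7.88, 8.79 and 9.78 in the shH4 libraries and 13.8, 13.6 and 3.74 in the shH6 libraries. Zfp985 was low throughout, the KD libraries were all below shControl, and shH6 replicate 3 stood below the other KD libraries. Zfp985 had a log2 fold change of -1.98 with H4 and -1.94 with H6 (standard error 0.36 in both, limma adjusted p = 0.000152 and 0.000174). Zfp979 (ENSMUSG00000066000), with 3 fingers, had values of 381, 351 and 358 normalized counts in the shControl libraries, 205, 185 and 156 in the shH4 libraries and 147, 155 and 129 in the shH6 libraries. All 6 KD libraries of Zfp979 lay well below shControl, and the shH6 libraries lay below the shH4 libraries. Zfp979 fell by 1.001 in shH4 and by 1.34 in shH6 on the log2 scale (standard error 0.10 in both, limma adjusted p = 5.94e-07 and 2.55e-08).

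Zfp984 (ENSMUSG00000078495) was at 408, 408 and 425 normalized counts in the shControl libraries, 353, 324 and 378 in the shH4 libraries and 321, 285 and 268 in the shH6 libraries. Its shH6 libraries lay lowest and its shH4 libraries between the others, with log2 fold changes of -0.24 and -0.51 (standard error 0.08 in both, limma adjusted p = 0.0115 and 3.71e-05). Without shH4 replicate 2, the shH4 value was -0.18 (limma adjusted p = 0.0617). Zfp993 (ENSMUSG00000063245) was at 38.9, 55.4 and 46.2 normalized counts in the shControl libraries, 24.3, 25 and 19.2 in the shH4 libraries and 36.3, 31.7 and 34.8 in the shH6 libraries. Here the order was the other way, with shH4 lowest, and the log2 fold changes were -0.999 and -0.43 (standard error 0.2 in both, limma adjusted p = 0.000273 and 0.0462). The shH6 call of Zfp993 was lost with the replicate number as a block (limma adjusted p = 0.0578) and with column totals made equal (limma adjusted p = 0.0685). The order of the hairpins within the cluster was not called for Zfp993 or Zfp979 (shH6 against shH4: 0.57 and -0.33, limma adjusted p = 0.0865 and 0.0582), though both were called with library weights (0.62 and -0.30, limma adjusted p = 0.0285 and 0.0352) and Zfp979 also with the replicate block (limma adjusted p = 0.04). Genes of this cluster share exon sequence with other genes to different degrees. Of the 75-base windows in its exons, 78.7% in Zfp993, 41.6% in Zfp984, 19.8% in Zfp979 and 4.72% in Zfp985 also occur in another gene, so reads may have been split between copies and each value is uncertain to that extent.

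**Figure D2:**
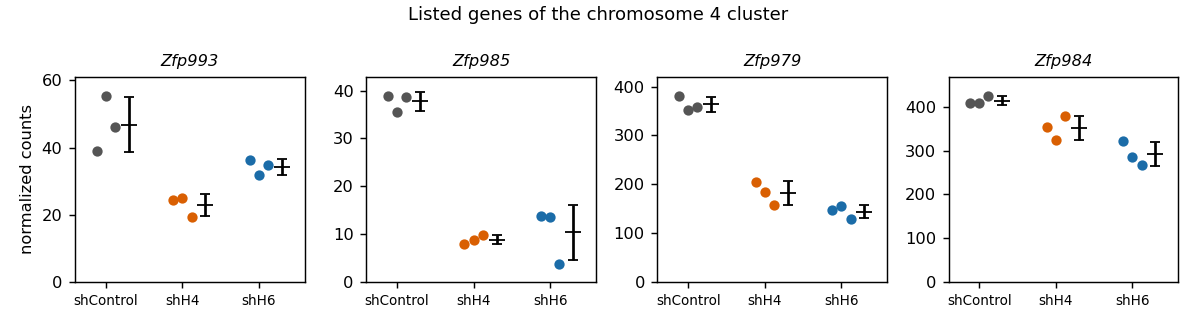
Normalized counts on the y axis are plotted for the listed genes of the chromosome 4 cluster, with 1 point per library and the mean ± SD (n = 3) beside each group. In all 4 genes the 6 knockdown libraries lie below the 3 shControl libraries.

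The promoters of 3 of these genes are shown as close relatives, and any part of the promoter sequence in their falls was not tested. RefSeq gives them on GRCm38.p6 as 250 bases before the transcription start and 50 bases after it, and 82 of the 97 members had an entry in that table. The promoter of Zfp993 is left out, as its RefSeq entry lies at another locus than its GENCODE M21 gene. Zfp985 lies on the plus strand at chr4:147553027-147553326, Zfp979 on the minus strand at chr4:147642459-147642758 and Zfp984 on the minus strand at chr4:147809739-147810038. Each is written 5′ to 3′ along its gene, and capitals mark bases in a stretch of at least 10 that occurs in all 3.
Zfp985: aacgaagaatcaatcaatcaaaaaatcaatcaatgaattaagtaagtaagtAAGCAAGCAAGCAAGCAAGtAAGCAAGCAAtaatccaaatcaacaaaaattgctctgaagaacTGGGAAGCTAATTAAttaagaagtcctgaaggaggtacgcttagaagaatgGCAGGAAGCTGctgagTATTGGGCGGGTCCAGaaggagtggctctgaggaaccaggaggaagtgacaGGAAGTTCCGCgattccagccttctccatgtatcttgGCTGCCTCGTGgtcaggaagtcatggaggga
Zfp979: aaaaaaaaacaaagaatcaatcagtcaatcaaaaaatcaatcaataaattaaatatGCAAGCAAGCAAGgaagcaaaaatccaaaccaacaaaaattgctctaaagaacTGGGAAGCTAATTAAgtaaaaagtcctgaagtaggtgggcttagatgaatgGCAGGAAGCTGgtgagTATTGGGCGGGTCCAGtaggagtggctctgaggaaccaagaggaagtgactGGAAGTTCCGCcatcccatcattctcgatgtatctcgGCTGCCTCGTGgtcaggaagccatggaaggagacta
Zfp984: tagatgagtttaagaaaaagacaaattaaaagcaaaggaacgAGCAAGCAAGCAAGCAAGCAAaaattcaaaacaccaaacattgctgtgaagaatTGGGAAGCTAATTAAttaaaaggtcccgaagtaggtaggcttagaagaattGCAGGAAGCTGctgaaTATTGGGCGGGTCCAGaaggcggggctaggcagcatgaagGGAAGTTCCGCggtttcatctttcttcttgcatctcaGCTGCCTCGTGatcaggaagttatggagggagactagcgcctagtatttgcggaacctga

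The shared letters covered 93 bases in Zfp985, 77 in Zfp979 and 85 in Zfp984. The longest stretch outside the AAGC repeat was TATTGGGCGGGTCCAG, 16 bases long, which was found in 9 of 32851 RefSeq promoters on either strand. In 8 of these 9 the gene belonged to the chromosome 4 cluster, of which 13 genes had a promoter in the table. Of these 8, the 3 shown were the only listed members, so the changes of the rest are not known. A second stretch, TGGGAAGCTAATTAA, was in 12 promoters, 11 of them of the cluster. The first stretch holds ATTGG, the reverse complement of the CCAAT box bound by NF-Y, and GGGCGG, the GC box of SP1 and related factors, and these letters overlap by a pair of G bases. Such matches describe the letters only. Over all promoters with either strand searched, GGGCGG was found for 57.3% of the 82 members and 38.2% of all genes, and ATTGG for 45.1% and 41.1%. All genes here are the 27025 with a promoter entry, listed or not, so the sets differ in kind. GGGCGG was found for 62.1% of the 29 members lower in both hairpins and 54.7% of the 53 higher, and ATTGG for 48.3% and 43.4%.

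The other KRAB members that fell lay elsewhere. Zfp688 (ENSMUSG00000045251), on chromosome 7, was at 328, 293 and 295 normalized counts in the shControl libraries, 179, 204 and 193 in the shH4 libraries and 216, 193 and 209 in the shH6 libraries, and it had log2 fold changes of -0.66 and -0.56 (standard error 0.087 in both, limma adjusted p = 6.22e-06 and 3.02e-05). The KD libraries of Zfp688 did not reach shControl, and those of the hairpins overlapped. Zfp958 (ENSMUSG00000058748), with 13 fingers, was at 567, 569 and 600.4 normalized counts in the shControl libraries, 404, 423 and 437 in the shH4 libraries and 438, 424 and 378 in the shH6 libraries, with log2 fold changes of -0.46 and -0.49 (standard error 0.068 in both, limma adjusted p = 2.16e-05 and 1.08e-05). The groups of Zfp958 were as clearly apart, at a higher level than Zfp688. Zfp369, the neurotrophin receptor interacting factor NRIF2, was at 858, 875 and 895 in shControl, 791, 742 and 799 in shH4 and 756, 769 and 759 in shH6, and its log2 fold changes were -0.17 and -0.20 (limma adjusted p = 0.00445 and 0.0015). Zfp28, Zfp954 and Zfp51 fell by 0.32 to 0.50 on the log2 scale in both hairpins.

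The KRAB members with the largest rises were low. Zfp966 (ENSMUSG00000089756) was at 8.6, 8.2 and 9.1 normalized counts in the shControl libraries, 17.4, 23.8 and 19.2 in the shH4 libraries and 18.4, 19.1 and 13.3 in the shH6 libraries, a log2 fold change of 1.12 and 0.88 (standard error 0.27 in both, limma adjusted p = 0.00123 and 0.00569). All KD libraries of Zfp966 were above shControl, at the lowest level per kilobase of any member. Of its 75-base windows, 84.2% occur in another gene, most often Zfp968 and Zfp967. Zfp941 (ENSMUSG00000060314) was at 23.9, 20.2 and 17.7 normalized counts in the shControl libraries, 49.3, 35.2 and 35.2 in the shH4 libraries and 32.1, 30.4 and 29.9 in the shH6 libraries, with log2 fold changes of 0.91 and 0.57 (standard error 0.21 in both, limma adjusted p = 0.000823 and 0.0158), and without shControl replicate 3 the shH6 value was 0.47 (limma adjusted p = 0.0606). Zfp882 and Zfp961, neighbours on chromosome 8, rose together. Zfp882 was at 61.5, 55.7 and 55.4 normalized counts in the shControl libraries, 88.7, 70.3 and 91 in the shH4 libraries and 82.6, 85 and 79.8 in the shH6 libraries, and Zfp961 was at 316, 334 and 350.03 in shControl, 394, 395 and 397 in shH4 and 425, 395 and 370.4 in shH6. For Zfp882 the log2 fold changes were 0.52 and 0.51, and for Zfp961 they were 0.25 and 0.25 (limma adjusted p = 0.00243 to 0.00428).

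Zfp568, a KRAB repressor that silences a placental transcript of Igf2 in the embryo, was at 829.5, 843 and 844 normalized counts in the shControl libraries, 981, 949.5 and 972 in the shH4 libraries and 1002, 1058 and 1018 in the shH6 libraries. Its libraries separated by group, and the log2 fold changes were 0.21 and 0.29 (standard error 0.046 in both, limma adjusted p = 0.000734 and 3.74e-05). Zfp746, known as PARIS and a repressor of PGC-1alpha, was matched only by the second part of the KRAB box and rose by 0.15 and 0.18. Zfp959 was near 100 normalized counts in shControl and had log2 fold changes of 0.33 and 0.31 (limma adjusted p = 0.0138 and 0.0191). Without shH4 replicate 3 the first was 0.25 (limma adjusted p = 0.0713), and without shControl replicate 3, shH6 replicate 1 or shH6 replicate 2 the second was 0.27 (limma adjusted p = 0.0632 to 0.0673).

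Position along the chromosome was looked at next. Zinc finger neighbours were counted among the 3 nearest coding genes on each side in GENCODE M21. Members with no such neighbour numbered 51, with 33 higher and 13 lower in shH4 (median 0.18) and 34 and 14 in shH6 (median 0.22), where 49.2% of all listed genes were higher and 46.5% lower in shH4 and 49.1% and 46.9% in shH6. Members with 1 numbered 14, with 11 higher and 3 lower in each hairpin. Members with 2 or more numbered 32, with 15 higher and 17 lower in each hairpin (46.9% and 53.1%). Their medians were -0.19 and -0.23, and the sign of these follows that small excess of lower members. Of the 27 KRAB members, 20 had 2 or more zinc finger neighbours, so the KRAB class and the clustered members shared most of their genes. Among these 20, 7 were higher and 13 lower in each hairpin, whereas of the 7 KRAB members with fewer neighbours 5 were higher and 2 lower in shH4, and 4 higher, 2 lower and 1 not called in shH6. Among the 12 members with 2 or more neighbours and another domain class, 8 were higher and 4 lower in each hairpin.

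Listed members of the same run moved the same way. In 9 runs of neighbouring zinc finger genes at least 2 members were listed, and within each run the listed members shared a direction. The chromosome 4 run fell, as did Zfp60, Zfp974 and Zfp780b on chromosome 7, Zfp874a and Zfp874b on chromosome 13, and Zfp51, Zfp947 and Zfp945 on chromosome 17. Those that rose were Zfp282, Zfp777 and Zfp746 on chromosome 6, Zscan22, Zfp446 and Zbtb45 on chromosome 7, Zfp568 and Zfp146 further along chromosome 7, Zfp882 and Zfp961 on chromosome 8, and Zfp236 and Zfp407 on chromosome 18. Zfp945 had the highest values of the chromosome 17 genes, at 721, 734 and 677 normalized counts in the shControl libraries, 588, 479 and 575 in the shH4 libraries and 581, 589.7 and 549.9 in the shH6 libraries, and its log2 fold changes were -0.38 and -0.31 (standard error 0.072 in both, limma adjusted p = 0.000203 and 0.00102). Counted as pairs at most 3 coding genes apart, 9 of 9 pairs of members agreed in direction, and 2032 of 3770 pairs of listed coding genes (53.9%) did. Without shH4 replicate 1 the shH4 calls of Zfp947 and Zfp60 were lost, and that of Zfp947 also without shControl replicate 1, shControl replicate 3 or shH4 replicate 2 (limma adjusted p = 0.0535 to 0.136). Those of Zfp777 and Zfp746 were lost without shH4 replicate 2, and that of Zfp746 also without shControl replicate 2 (limma adjusted p = 0.0523 to 0.0681). In shH6, Zfp282 was not called without shControl replicate 3 nor Zfp407 without shH6 replicate 3 (limma adjusted p = 0.0657 and 0.0641). Upper quartile scaling ended the same calls of Zfp777, Zfp746, Zfp282 and Zfp407 (limma adjusted p = 0.0804 to 0.119), and column totals made equal ended the shH4 call of Zfp947 (limma adjusted p = 0.0513). No direction changed in these fits. Of the 9 pairs, 3 came from the chromosome 4 cluster alone. Zfp874a and Zfp874b share exon windows with each other (7.74% and 8.94% of their 75-base windows occur in another gene), as do Zfp974 and Zfp780b (10.3% and 21.6%), and the part of shared reads in the agreement was not tested. The pattern was noticed after the values were seen and is given with no test.

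**Figure D3:**
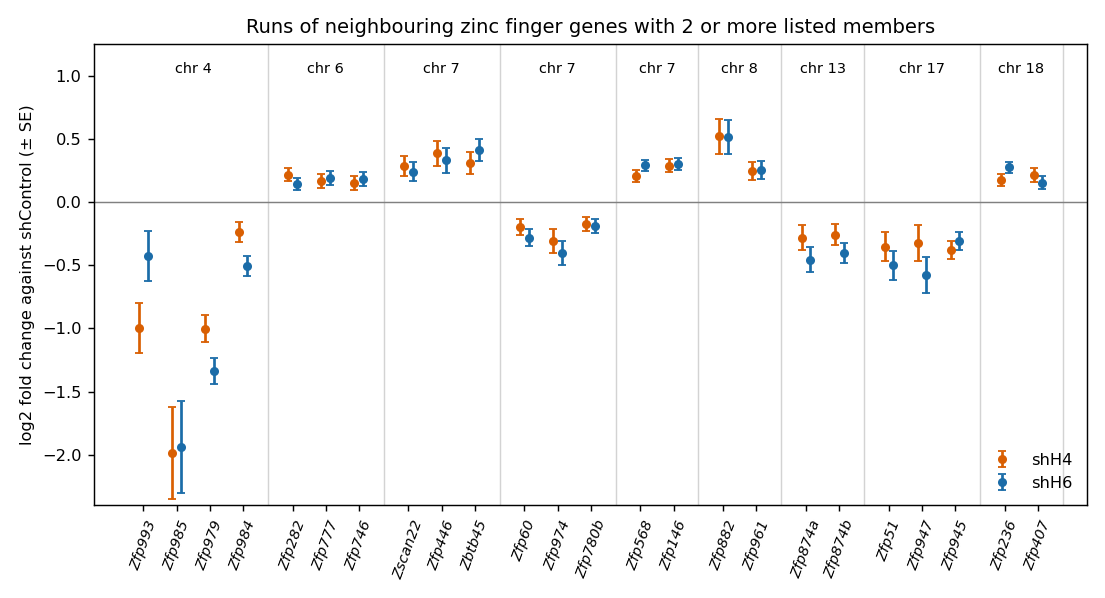
Log2 fold changes against shControl (y axis, ± SE from limma) are shown for the listed members of each run of neighbouring zinc finger genes, in chromosome order along the x axis, with shH4 in orange and shH6 in blue. Within each run the points of both hairpins lie on the same side of 0, and the lowest points are those of Zfp985 and Zfp979 on chromosome 4.

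The SCAN members, here those named Zscan or Zkscan, were 5 of 30 annotated. Of these, 4 fell and 1 rose in both hairpins, with medians of -0.36 and -0.22, where 46.5% and 46.9% of all listed genes were lower. Zkscan7 (ENSMUSG00000063488), with 10 fingers, was at 378, 365 and 344 normalized counts in the shControl libraries, 229, 228 and 243 in the shH4 libraries and 217, 205 and 180.4 in the shH6 libraries. The shH6 libraries of Zkscan7 were below those of shH4, and both were below shControl, with log2 fold changes of -0.63 and -0.85 (standard error 0.085 in both, limma adjusted p = 7.73e-06 and 3.37e-07). Zkscan14 (ENSMUSG00000029627) was at 221, 194 and 217 normalized counts in the shControl libraries, 163, 149 and 151 in the shH4 libraries and 168, 152 and 155 in the shH6 libraries, and it fell alike in the hairpins by 0.45 and 0.41 (standard error 0.093 in both, limma adjusted p = 0.000436 and 0.000814). Zkscan17, also called NIZP1 and a binding partner of the methyltransferase NSD1, was at 1235, 1109 and 1146 in shControl, 996, 1028 and 1083 in shH4 and 1015, 965 and 1009.8 in shH6, which gave log2 fold changes of -0.17 and -0.22 (limma adjusted p = 0.00667 and 0.000978). Zkscan6 was at 452, 439 and 429 in shControl, 339, 328 and 361 in shH4 and 411, 404 and 364 in shH6, which gave log2 fold changes of -0.36 and -0.16 (limma adjusted p = 0.000241 and 0.0336). The shH6 value of Zkscan6 did not pass without shControl replicate 1, shControl replicate 2 or shH6 replicate 3 (-0.14, -0.17 and -0.11, limma adjusted p = 0.102, 0.0608 and 0.151), with column totals made equal (-0.12, limma adjusted p = 0.0985) or with library weights (-0.11, limma adjusted p = 0.0763). Zscan22, the SCAN member that rose, was at 306, 294 and 287 in shControl, 398, 346 and 338 in shH4 and 358, 356 and 334 in shH6, which gave log2 fold changes of 0.28 and 0.24 (limma adjusted p = 0.00282 and 0.00773).

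The BTB members, here those named Zbtb, were 9 of 41 annotated. In shH4, 5 were higher and 3 lower, and in shH6, 6 were higher and 3 lower, with medians of 0.23 and 0.34. The shares over all listed genes were 49.2% higher and 46.5% lower in shH4 and 49.1% and 46.9% in shH6. Zbtb2 (ENSMUSG00000075327) was at 319, 266 and 322 normalized counts in the shControl libraries, 430.2, 439 and 391 in the shH4 libraries and 436, 437 and 375 in the shH6 libraries. The KD libraries of Zbtb2 were all above shControl, and the hairpins overlapped, with log2 fold changes of 0.48 and 0.46 (standard error 0.087 in both, limma adjusted p = 0.000142 and 0.000179). Zbtb39 and Zbtb45, both at low to moderate levels, rose by 0.39 and 0.31 with the H4 hairpin and by 0.46 and 0.41 with H6. Zbtb1, required for lymphoid development, rose by 0.34 in each hairpin. Zbtb14, first isolated as a repressor of the Myc promoter, was at 660.1, 657 and 637 normalized counts in the shControl libraries, 806, 755 and 739 in the shH4 libraries and 779, 813 and 766 in the shH6 libraries, and its log2 fold changes were 0.23 and 0.27 (standard error 0.053 in both, limma adjusted p = 0.000851 and 0.00026).

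The BTB members that fell have known roles in methylated DNA binding and in immune cell identity. Zbtb4, which binds methylated CpG, was at 985, 1044 and 1040.1 normalized counts in the shControl libraries, 813, 893 and 806 in the shH4 libraries and 809, 770.2 and 754 in the shH6 libraries. Every KD library of Zbtb4 was below every shControl library, with log2 fold changes of -0.29 and -0.40 (standard error 0.054 in both, limma adjusted p = 0.000175 and 9.21e-06). Zbtb46, a factor of classical dendritic cells, was at 119.6, 109 and 119.6 in shControl, 87.7, 78 and 91.9 in shH4 and 96.4, 83.9 and 93.5 in shH6, which gave log2 fold changes of -0.43 and -0.34 (limma adjusted p = 0.00318 and 0.0119), and the second was -0.29 (limma adjusted p = 0.051) without shH6 replicate 2. Zbtb7b, known as ThPOK and also active in the mammary epithelium, was the BTB member with the highest value per kilobase in shControl, 466. Zbtb7b was at 2665, 2522 and 2625 normalized counts in the shControl libraries, 2371, 2504 and 2329 in the shH4 libraries and 2388, 2372 and 2406 in the shH6 libraries, a fall of 0.12 and 0.12 on the log2 scale (limma adjusted p = 0.0099 and 0.00697).

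Among the 44 members with 3 or more fingers and no KRAB match, most rose. Zfp422 (ENSMUSG00000059878) was at 289, 291 and 294 normalized counts in the shControl libraries, 366, 364 and 391 in the shH4 libraries and 489, 439 and 458 in the shH6 libraries. The groups of Zfp422 were in the order shControl, shH4, shH6 without overlap, and the log2 fold changes were 0.36 and 0.66 (standard error 0.068 in both, limma adjusted p = 0.000198 and 4.6e-07). Zfp35 was at 226, 270.3 and 210.5 in shControl, 303, 296 and 318 in shH4 and 324, 277 and 382 in shH6, which gave log2 fold changes of 0.38 and 0.47 (limma adjusted p = 0.00418 and 0.000932). Zfp628 was at 82.7, 87.7 and 103 in shControl, 98.6, 152 and 121 in shH4 and 122, 115 and 162 in shH6, which gave log2 fold changes of 0.42 and 0.53 (limma adjusted p = 0.019 and 0.00526). One shH4 library of Zfp628 was within the shControl range, and the shH4 call was lost without shControl replicate 1 (0.36, limma adjusted p = 0.064) or shH4 replicate 2 (0.27, limma adjusted p = 0.125). Zfp335, a regulator of neural progenitor division, rose by 0.17 and 0.20 (limma adjusted p = 0.012 and 0.00481), and its shH4 value was 0.14 (limma adjusted p = 0.0565) without shControl replicate 1 and 0.11 (limma adjusted p = 0.0868) with upper quartile scaling. The antisense gene Zfp335os is also listed, and without a stated use of strand their reads cannot be told apart. Zfp410, which is known for driving Chd4, rose by 0.15 and 0.16, though not in shH4 without shH4 replicate 2 (0.11, limma adjusted p = 0.0842) and in neither hairpin with upper quartile scaling (0.086 and 0.105, limma adjusted p = 0.135 and 0.0737), and Zfp644, a partner of the H3K9 methyltransferases EHMT1 and EHMT2, by 0.20 and 0.17.

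The members of this class that fell included Zfp874a and Zfp974, whose coding genes lie in clusters. Zfp874a was at 189, 177 and 169.9 normalized counts in the shControl libraries, 134, 149 and 157 in the shH4 libraries and 129, 134 and 126 in the shH6 libraries, with log2 fold changes of -0.28 and -0.46 (standard error 0.099 in both, limma adjusted p = 0.0126 and 0.000559). The shH4 value of Zfp874a was -0.24 and -0.22 (limma adjusted p = 0.0576 and 0.0607) without shControl replicate 1 or shH4 replicate 1. Zfp974 fell by 0.31 and 0.40, and Zfp72 had log2 fold changes of -0.46 and -0.33 (limma adjusted p = 0.00637 and 0.0339). The shH6 value of Zfp72 was not called without shControl replicate 1, shControl replicate 2, shH6 replicate 1 or shH6 replicate 2 (limma adjusted p = 0.0554, 0.141, 0.0765 and 0.104) or with column totals made equal (limma adjusted p = 0.0651). Zfp346, a protein that binds double-stranded RNA, fell by 0.37 and 0.25, and Zfp277, a repressor of the Ink4a/Arf locus, by 0.26 and 0.25.

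The 11 members with fewer than 3 fingers are mixed in function. In shH4, 6 were higher and 4 lower, and in shH6, 7 were higher and 4 lower, where all listed genes were 49.2% higher and 46.5% lower in shH4 and 49.1% and 46.9% in shH6. Zfp704 (ENSMUSG00000040209), a transcription factor whose human counterpart is gained in some breast cancers, had the highest log2 fold change of any member. By group means in shH6 the low Zfp966 rose more, 1.97-fold, where Zfp704 rose 1.92-fold. Zfp704 was at 370.3, 339 and 376 normalized counts in the shControl libraries, 818, 844 and 957 in the shH4 libraries and 684, 611 and 792 in the shH6 libraries. All 6 KD libraries of Zfp704 were far above shControl, and the shH4 libraries were above the shH6 libraries. For Zfp704 the log2 fold changes were 1.27 and 0.94 (standard error 0.084 in both, limma adjusted p = 4.21e-09 and 1.28e-07). Zfp593, the counterpart of a yeast factor of large ribosomal subunit assembly, was at 911, 860.1 and 949 normalized counts in the shControl libraries, 666, 689 and 666 in the shH4 libraries and 767, 775 and 707 in the shH6 libraries, a fall of 0.43 in shH4 and 0.27 in shH6 (standard error 0.055 in both, limma adjusted p = 5.71e-06 and 0.00032). Zfp365, a centrosomal protein, was at 471, 496 and 429.8 in shControl, 309, 351 and 367 in shH4 and 333, 341 and 338 in shH6, which gave log2 fold changes of -0.44 and -0.46 (limma adjusted p = 9.08e-05 and 6.04e-05). Zfp839 fell by 0.26 and 0.26 (limma adjusted p = 0.00275 and 0.00285).

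Zfp207, Zfp638 and Zfp706 were the members of this class with the highest values. Zfp207, known as BuGZ and needed for BUB3 loading at kinetochores, was at 4017, 3804 and 3894 normalized counts in the shControl libraries, 4806, 4721 and 4622 in the shH4 libraries and 4746, 4891 and 4539 in the shH6 libraries. The 6 KD libraries of Zfp207 were above all shControl libraries, with log2 fold changes of 0.27 and 0.27 (standard error 0.037 in both, limma adjusted p = 9.05e-06 and 7.8e-06). Zfp638, called NP220, is known for silencing unintegrated retroviral DNA together with the HUSH complex and SETDB1. Zfp638 was at 3780.1, 3788 and 3800.5 normalized counts in the shControl libraries, 4458, 4225 and 4315 in the shH4 libraries and 4547, 4411 and 4236 in the shH6 libraries, and it rose by 0.19 and 0.21 on the log2 scale (standard error 0.036 in both, limma adjusted p = 0.000172 and 6.4e-05). Zfp706 had small log2 fold changes of 0.10 and 0.11 (limma adjusted p = 0.0151 and 0.0112), which were 0.041 and 0.056 (limma adjusted p = 0.291 and 0.156) with libraries scaled to a common upper quartile and 0.076 and 0.082 (limma adjusted p = 0.0856 and 0.0673) without shControl replicate 1. Zfp428 and Zfp414 rose by 0.33 and 0.22 with the H4 hairpin and by 0.28 and 0.37 with H6. The shH6 call of Zfp428 was lost without shControl replicate 1, shControl replicate 3 or shH6 replicate 3, and the shH4 call of Zfp414 without shControl replicate 3, shH4 replicate 1 or shH4 replicate 2 (limma adjusted p = 0.0519 to 0.117) and with upper quartile scaling (limma adjusted p = 0.106). For Zfp414, 43% of the 75-base windows occur in Gm20507. Zhx3, a homeobox repressor with zinc fingers, was at 366, 340.2 and 364 in shControl, 407, 419.8 and 415 in shH4 and 395, 406 and 450.2 in shH6, which gave log2 fold changes of 0.21 and 0.22 (limma adjusted p = 0.00841 and 0.00638).

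The hairpins were then compared directly, without the shControl libraries entering the contrast. Of the 97 members, 4 were higher in shH6 than in shH4 and 3 were lower, where 3.89% of all listed genes were higher and 4.38% lower, so the share of members called was near that of the table. The median difference of the members was 0.0056 on the log2 scale and -0.0049 over all genes. Resf1 itself was 0.19 higher in shH6 (limma adjusted p = 0.00984). Zfp37 (ENSMUSG00000028389) differed most among those with lower values in shH6, at 191, 186 and 196 normalized counts in the shControl libraries, 299.6, 278 and 284 in the shH4 libraries and 212, 196 and 191 in the shH6 libraries. The shH6 libraries of Zfp37 lay in or near the shControl range while shH4 stood above both, and the difference was -0.52 (SE 0.081, limma adjusted p = 0.000659). Against shControl it was called in shH4 (0.58, limma adjusted p = 1.18e-05) and not in shH6 (0.061, limma adjusted p = 0.463). Zbtb7c (ENSMUSG00000044646) was at 114, 124 and 119.6 normalized counts in the shControl libraries, 119, 154 and 124 in the shH4 libraries and 187, 176 and 231 in the shH6 libraries. In Zbtb7c shH6 stood above the other groups, whose libraries overlapped, and the difference was 0.58 (SE 0.12, limma adjusted p = 0.00664).

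Zfp451, a SUMO ligase, was at 1704, 1719 and 1696 normalized counts in the shControl libraries, 1806, 1687 and 1885 in the shH4 libraries and 2034, 2028 and 2134 in the shH6 libraries, with a difference of 0.21 (SE 0.044, limma adjusted p = 0.00723), and its shH4 value against shControl, 0.07, was not called (limma adjusted p = 0.132) except without shH4 replicate 2 (0.11, limma adjusted p = 0.0261). Zfp367 was at 1055, 1049.9 and 1026 normalized counts in the shControl libraries, 1121, 1089 and 1066 in the shH4 libraries and 1226, 1342 and 1208 in the shH6 libraries, with a difference of 0.20 (SE 0.049, limma adjusted p = 0.0144). In both genes shH6 lay above shH4 without overlap. Zfp422 and Zfp704, whose libraries are given above, differed by 0.30 and -0.33 (SE 0.068 and 0.084, limma adjusted p = 0.00889 and 0.0199). Zfp984 differed by -0.27 (SE 0.08, limma adjusted p = 0.0452), just past the threshold. The Zfp984 call was lost in 7 of 9 fits that left out a library, with limma adjusted p from 0.052 to 0.185 in those, and in 5 of the 8 other alternatives (limma adjusted p = 0.054 to 0.115). Zfp367 was not called without shH4 replicate 3 or shH6 replicate 2 (0.19 and 0.16, limma adjusted p = 0.063 and 0.0795), Zfp422 without shH6 replicate 1 (0.26, limma adjusted p = 0.0589), and Zfp704 without shH4 replicate 3, shH6 replicate 1 or shH6 replicate 2 (-0.26, -0.33 and -0.24, limma adjusted p = 0.119, 0.0641 and 0.0959). Without shH6 replicate 2, 4 members in all were called. With library weights 11 members were (11.3%), where 12.9% of all listed genes were called. Zfp37, Zbtb7c and Zfp451 were called in every fit that left out 1 library.

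**Figure D4:**
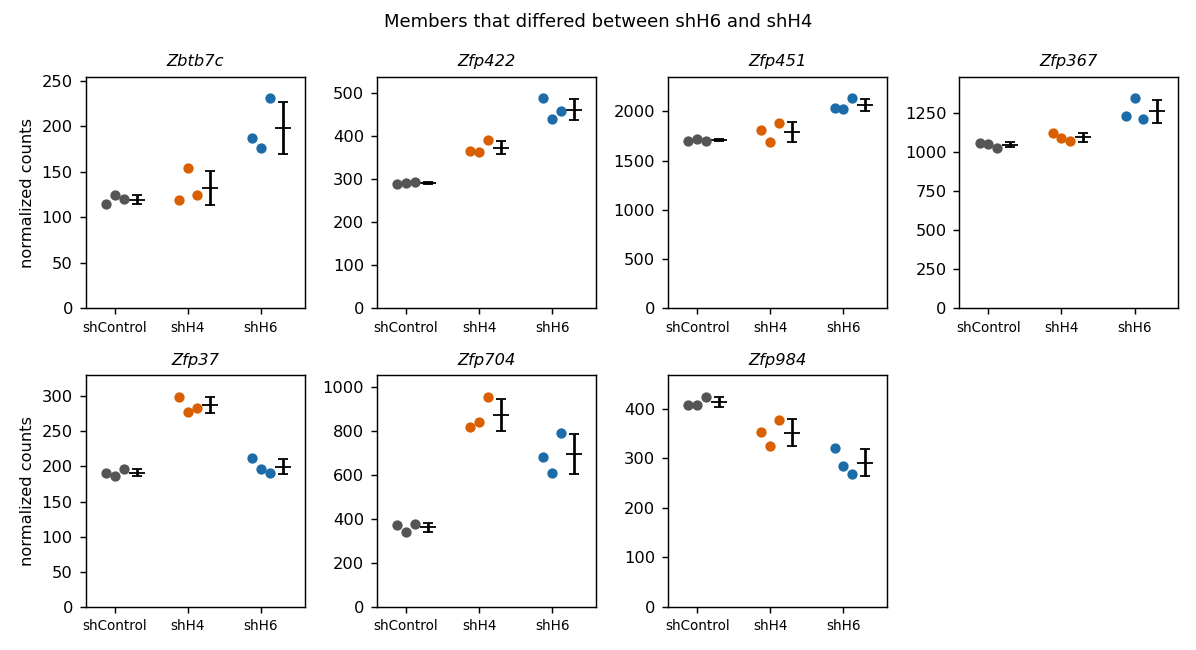
Normalized counts (y axis) of the 7 members called between shH6 and shH4 are plotted with 1 point per library and the mean ± SD (n = 3) beside each group. Zbtb7c, Zfp422, Zfp451 and Zfp367 are highest in shH6, Zfp37 and Zfp704 are highest in shH4, and Zfp984 is lowest in shH6.

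Genes that act with zinc finger proteins were read from a list written by hand. Of 40 genes of the SETDB1 and TRIM28 complex, the HUSH complex, other H3K9 and DNA methylation factors and BTB corepressors, 20 were listed. In each hairpin 17 of these were higher and 3 lower, where 49.2% and 46.5% of all listed genes were called in shH4 and 49.1% and 46.9% in shH6, and the medians were 0.17 for shH4 and 0.16 for shH6. The 3 lower genes were Resf1 and 2 methyltransferases, Ehmt2 (-0.13 and -0.13), which methylates H3K9, and Dnmt3a (-0.25 and -0.25), which methylates DNA anew. Trim28, the corepressor that KRAB domains bind, was at 8464, 8529.7 and 8891 normalized counts in the shControl libraries, 9574, 9963 and 9099 in the shH4 libraries and 9635, 10039 and 10249 in the shH6 libraries, and its log2 fold changes were 0.14 and 0.21 (limma adjusted p = 0.00261 and 0.000151). Setdb1, the methyltransferase it brings, rose by 0.12 and 0.11, and Cbx1 and Cbx3, HP1 proteins that read H3K9 methylation, by 0.15 to 0.18. With libraries scaled to a common upper quartile, the log2 fold changes of Setdb1 were 0.056 and 0.061 (limma adjusted p = 0.161 and 0.129), and 14 of the 20 listed genes were called higher and 3 lower in each hairpin. At that scaling, 38.5% of all listed genes were called higher and 48.6% lower in shH4, and 40.2% and 48.6% in shH6.

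Uhrf1, which reads hemimethylated DNA for the maintenance methyltransferase, had the largest rise on the list. Uhrf1 was at 4893, 5663 and 5387 normalized counts in the shControl libraries, 7120.2, 7174 and 7348 in the shH4 libraries and 7677, 7408 and 7853 in the shH6 libraries, with log2 fold changes of 0.44 and 0.53 (standard error 0.045 in both, limma adjusted p = 4e-07 and 6.62e-08). The KD libraries of Uhrf1 were all above shControl. Dnmt1 rose by 0.16 and 0.24, Suv39h1 by 0.29 and 0.35, Suv39h2 by 0.30 and 0.23, and Ehmt1 by 0.26 and 0.26. Morc2a, the listed gene of the HUSH group, rose by 0.18 and 0.16. The corepressor Bcor rose by 0.38 and 0.34 and the histone deacetylase Hdac3 by 0.19 and 0.16. Of the 20 genes, Resf1 alone was called between the hairpins.

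**Figure D5:**
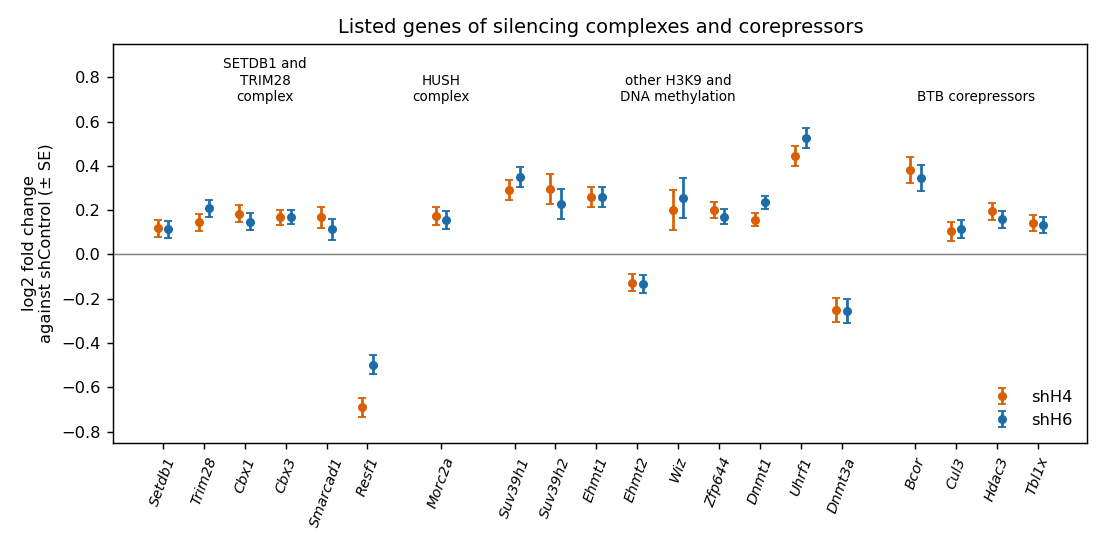
Log2 fold changes against shControl (y axis, ± SE from limma) are shown for the 20 listed genes of silencing complexes and corepressors, grouped by list along the x axis, with shH4 in orange and shH6 in blue. Resf1, Ehmt2 and Dnmt3a lie below 0 in both hairpins and the other 17 above it.

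Features outside the rule were described last. The members were expressed below the typical listed gene, their median being 471 normalized counts where that of the whole table was 947. Members that were lower in the KD groups had a median of 321 normalized counts and a transcript GC content of 42.8%, and those that were higher had 638 and 47.2%. Per kilobase of exon in shControl, Zfp207 (587), Zfp869 (537) and Zfp706 (537) stood highest, and Zfp966 (2.89), Zfp941 (4.37) and Zfp985 (13.2) lowest. The rank correlation of GC content with the log2 fold change across the 97 members was 0.15 in shH4 and 0.30 in shH6, and it was -0.12 and -0.063 across 5258 genes of the table. With the difference between shH6 and shH4 it was 0.37 across the members and 0.13 across those genes. These points share libraries and base composition, so the values are descriptions, and the part of GC content in the results above was not tested. Between replicates, the median coefficient of variation of the members was 4.38% for shControl dishes, 5.33% for shH4 and 5.40% for shH6, slightly above the 3.97%, 4.29% and 4.55% of all genes. The number of fingers had a rank correlation of 0.031 and -0.052 with the log2 fold change in shH4 and shH6.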

How the data were processed

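RNA-seq of total RNA from 9 6DT1 libraries (TruSeq Stranded Total RNA) was used. Per the submitters' processing notes, the authors aligned reads with STAR 2.7.8a in Partek, with DESeq2 and the mm39 build also named. The annotation and counting step were not given in the sources used here. The deposited values are a signal per gene, which the authors made by dividing each library's read counts by its size factor. Of the values between 0.5 and 150 normalized counts, 64.8 to 76.7% per library lay within 0.01 of a whole multiple of one step. That was short of nearly all values, so they were not taken as whole reads and no count test was run. Size factors estimated from the steps ran from 0.802 to 1.46.

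Genes were matched to GENCODE M21 (GRCm38), which matched 99.2% of the listed identifiers and left 43 without a match. It was used for names, types, exon lengths, order along chromosomes and coding sequences. KRAB boxes and fingers were found in the translated coding sequence by amino acid patterns, and the BTB, SCAN and homeobox classes were set by symbol. Promoter sequences and their coordinates came from the RefSeq table for GRCm38.p6.

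The fit used limma 3.58.1 (R 4.3.3) on log2(value + 1), with a mean per group over all 9 libraries, a trend on the mean and Benjamini-Hochberg adjustment over all 5301 genes. All 9 value columns matched a sample. The fit was tested on simulated data. Named genes were preset members, the 3 highest and 3 lowest of each class with a mean of at least 50 normalized counts, members called between the hairpins, the 3 highest and 3 lowest per kilobase, and the listed partner genes. Other members are named in counts, runs and examples, and were chosen after their values were seen. The members, lists and patterns were chosen with earlier results of these data known. Alternatives changed the pseudocount (0.5 or 5), the filter (10 normalized counts in every library), the scaling, the samples fitted, library weights, a replicate block and each library left out. No molecular identifiers were used here, and p-values measure the spread between dishes of 1 line.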

Additional observations from a re-analysis of the deposited data

Results flagged for a closer look

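A closer look is due to the genes whose effect differed between the hairpins in a direct test of shH6 against shH4 (limma, adjusted over all genes). Higher in shH6 were Zbtb7c (0.58), Zfp422 (0.30), Zfp451 (0.21) and Zfp367 (0.20) on the log2 scale. Zfp37 (-0.52), Zfp704 (-0.33) and Zfp984 (-0.27) were lower in shH6. The limma adjusted p was lowest for Zfp37 (0.000659) and highest for Zfp984 (0.0452). The Zfp984 call was lost in 7 of 9 fits that left out a library and with the replicate block (limma adjusted p = 0.054), and that of Zfp704 in 3 of 9 fits that left out a library. Resf1, the target of both hairpins, was also higher in shH6 (0.19, limma adjusted p = 0.00984), and its part in the differences of the 7 members was not tested. Each hairpin was carried by 1 transduced line, so line and hairpin cannot be told apart.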

How the results depend on the processing

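Of 156 values of the main results under the alternatives, 143 stayed within the set limits and 13 moved. The median difference of the members between the hairpins, 0.0056, was near 0 and changed sign without shH6 replicate 1 (-0.0013). Of 4076 values of single members and partner genes, counting the difference between the hairpins only where it was called, 3900 kept their side of the threshold, 165 lost the call, 11 gained it and 0 reversed. The median log2 fold change of the members in shH4 was 0.19 with column totals made equal and 0.11 with upper quartiles made equal, and 0.16 to 0.18 with a library left out. In shH6 it was 0.21, 0.12 and, with library weights, 0.16, and 0.16 to 0.18 with a library left out. Between shH6 and shH4 it was 0.020 and 0.015 under the same scalings, and -0.0013 to 0.011 with a library left out. The number of members called between the hairpins was 11 with library weights, where the share of all listed genes called also rose, from 8.26% to 12.9%, and the cause was not tested. It was 4 to 8 with a library left out, the lowest without shH6 replicate 2. With a library left out, 81 to 93 members were called in shH4 and 87 to 94 in shH6. Upper quartile scaling gave 43 members higher and 34 lower in shH4 and 51 and 34 in shH6, and of all listed genes it called 38.5% higher and 48.6% lower in shH4 and 40.2% and 48.6% in shH6. A stricter KRAB pattern matched 13 members.

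The replicate numbers were tested as a pairing. Libraries of the same number deviated together with correlations from -0.155 to 0.108, so the numbers do not pair the libraries. With the replicate block, 92 members were called in shH4 (59 higher and 33 lower), 93 in shH6 (60 and 33) and 7 between the hairpins by count. Between the hairpins Zfp984 lost its call (limma adjusted p = 0.054) and Zfp979 gained one (-0.33, limma adjusted p = 0.04). Zfp993 lost its call in shH6 (limma adjusted p = 0.0578). Over the 97 members and 20 partner genes, no other call changed in the 3 comparisons.

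The low reads of Zfp985, Zfp993, Zfp941 and Zfp966 limit their precision, as do 3 libraries per group.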

Other observations

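Among the listed KRAB members outside the rule for naming, Zfp334 and Zfp160 were called higher in both hairpins. The log2 fold changes were 0.099 and 0.16 for Zfp334 and 0.18 and 0.17 for Zfp160 (limma adjusted p = 0.00301 to 0.0401). With upper quartile scaling Zfp160 was called in neither hairpin (limma adjusted p = 0.0925 and 0.08) and Zfp334 was at 0.038 in shH4 (limma adjusted p = 0.41). Zfp970 was called in shH4 (0.29, limma adjusted p = 0.000695) and not in shH6 (0.14, limma adjusted p = 0.0537) except with column totals made equal or library weights (limma adjusted p = 0.0165 and 0.00715), while shH6 against shH4 gave no call (-0.16, limma adjusted p = 0.164). Of its 75-base windows, 33.4% occur in another gene.

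Among members without a KRAB match, Zfp651 and Zfp142 had log2 fold changes of 0.54 and 0.45 in shH6 and 0.27 and 0.26 in shH4, with differences of 0.27 and 0.18 that did not pass (limma adjusted p = 0.117 and 0.209). With library weights the difference of Zfp651 was called (0.30, limma adjusted p = 0.0313), and with upper quartile scaling its shH4 call was lost (0.21, limma adjusted p = 0.052). Zfp280b, Zfp280c and Zfp280d, relatives of a fly insulator protein, rose by 0.14 to 0.26 in both hairpins. Upper quartile scaling ended both calls of Zfp280c and the shH4 calls of Zfp280b and Zfp280d (limma adjusted p = 0.0724 to 0.149). A CACGTG letter run, the E-box that Myc binds, was in the promoters of 5 of the 82 members with an entry (6.1%). It was in those of 8.09% of the 27025 genes with an entry, listed or not. At least 4 runs of GGG, separated by 1 to 7 bases on either strand, were found for 25.6% of those members and 20.4% of the 27025 genes. These genes were chosen after their values were seen.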
